A study of Homo sapiens with 18 samples.

Results

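The replication-dependent histone genes are the 71 protein-coding genes of the count table whose symbol starts with HIST1H, HIST2H, HIST3H or HIST4H, out of 58870 genes in all. They were chosen by name and gene type alone, and 18 further genes with such a symbol that are not protein-coding were left out. By protein they comprise 6 H1 linker histones, 17 H2A, 18 H2B, 15 H3 and 15 H4 genes. By position they comprise 55 genes of the HIST1 cluster on chromosome 6, 12 of the HIST2 group and 3 of the HIST3 group on chromosome 1, and HIST4H4 alone on chromosome 12.

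Histone H2A, H2B, H3 and H4 form the octamer on which DNA is wound into a nucleosome, and H1 binds the linker DNA between nucleosomes. The replication-dependent genes supply these proteins while DNA is copied in S phase, when NPAT, a coactivator activated by cyclin E and CDK2, drives their transcription. Most metazoan messages end in a poly(A) tail, whereas the replication-dependent histone messages end in a short stem-loop bound by the stem-loop binding protein SLBP, and they are degraded at the end of S phase. Histone transcripts with a poly(A) tail are also known for some of these genes. In bulk RNA their summed level therefore follows both how many cells are in S phase and how much histone RNA each of them holds, and fewer cells of a type and less RNA per cell cannot be told apart.

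RNA of 3 human melanoma cell lines, WM164, SKMel28 (SKMEL28 in the labels) and A375, was sequenced after transduction with lentivirus that overexpressed either GFP as the control or MAFG. MAFG is a small MAF transcription factor, and the EF1α promoter drove a Myc-DDK-tagged MAFG or GFP in pools of blasticidin-selected cells, so that control and MAFG cells shared the vector, the selection and the medium. Each line and treatment had 3 libraries, 18 in all. Nothing states that the 3 libraries were separate cultures, so p-values measure the spread between these libraries, which may be technical.

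The library preparation sets which histone transcripts could be counted. The sample labels name the NEBNext Ultra RNA kit and the study's methods name a NuGEN Universal RNA-Seq kit, and neither says whether poly(A) selection or depletion of ribosomal RNA was used. RNAs that have no poly(A) tail were counted in every library: a list of 26 such RNAs, among them RN7SL1 of the signal recognition particle, RN7SK and the RNase subunit RMRP, held from 3.86% to 7.62% of all counts. How well stem-loop transcripts were captured was not measured, and the gene counts do not separate them from polyadenylated transcripts of the same gene. Of the 71 genes, 17 had a spliced transcript in GENCODE 44 and 54 had none.

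The stem-loop was looked for in the 150 bases after the stop codon by its histone consensus, on the coding strand of GRCh38. It was found in 68 of 71 histone genes (95.8%) and in 1 of 19874 other protein-coding genes (0.00503%). HIST1H2BI, HIST1H3E and HIST1H4L had no match in that window. Below are 8 of these sites with 5 bases on either side, with the stem-loop in capitals, chosen from genes that the comparisons turn on. HIST1H1A and HIST1H3G carry the core found in 10 genes, HIST1H4C and HIST4H4 another core found in 10 genes, HIST1H4I a core found in 4 genes, and HIST1H2AC, HIST1H2BE and HIST1H3I the core found in 41 genes.
HIST1H1A (GRCh38 chr6:26017032-26017057, minus strand): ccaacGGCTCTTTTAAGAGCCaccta
HIST1H3G (GRCh38 chr6:26270918-26270943, minus strand): aaaaaGGCTCTTTTAAGAGCCgccta
HIST1H4C (GRCh38 chr6:26104312-26104337, plus strand): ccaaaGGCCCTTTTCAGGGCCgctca
HIST4H4 (GRCh38 chr12:14770719-14770744, minus strand): caaaaGGCCCTTTTCAGGGCCcccaa
HIST1H4I (GRCh38 chr6:27139649-27139674, plus strand): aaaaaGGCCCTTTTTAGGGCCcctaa
HIST1H2AC (GRCh38 chr6:26124664-26124689, plus strand): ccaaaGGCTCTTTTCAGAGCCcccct
HIST1H2BE (GRCh38 chr6:26184205-26184230, plus strand): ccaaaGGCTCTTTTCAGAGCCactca
HIST1H3I (GRCh38 chr6:27871845-27871870, minus strand): caaaaGGCTCTTTTCAGAGCCcctca

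The promoters of the histone genes shared short motifs. RefSeq promoter sequences (GRCh38.p14, 250 bases before to 50 bases after the start) were matched for 66 of 71 genes. CCAAT, the letters bound by NF-Y, stood on either strand in 56 of 66 (84.8%) and in 34.6% of all 35116 promoters, and TATAAA stood in 66.7% and 11.5%. TGACNNNGC, the core of the element bound by small MAF dimers, stood in 12.1% of the histone promoters and in 13.3% of all promoters, and CATGTG, an E-box that MITF can bind, in 0 of 66 and in 11.1%. A match is a description of letters, not a binding site. Other E-box letters were not searched for, so the 0 of 66 does not show that sites for MITF were absent. Of the 3 promoters below, with CCAAT and TATAAA on either strand in capitals, HIST1H2AC and HIST1H3C belong to genes that fell in WM164 with MAFG and HIST1H4L to a gene counted in WM164 alone.
HIST1H2AC (GRCh38.p14 chr6:26123922-26124221, plus strand): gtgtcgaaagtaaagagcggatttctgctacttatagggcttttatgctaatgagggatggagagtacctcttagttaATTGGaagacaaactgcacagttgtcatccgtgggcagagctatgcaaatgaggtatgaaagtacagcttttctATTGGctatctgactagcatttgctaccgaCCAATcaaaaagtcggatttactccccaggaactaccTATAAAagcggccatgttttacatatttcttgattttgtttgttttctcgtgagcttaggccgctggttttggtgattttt
HIST1H3C (GRCh38.p14 chr6:26045134-26045433, plus strand): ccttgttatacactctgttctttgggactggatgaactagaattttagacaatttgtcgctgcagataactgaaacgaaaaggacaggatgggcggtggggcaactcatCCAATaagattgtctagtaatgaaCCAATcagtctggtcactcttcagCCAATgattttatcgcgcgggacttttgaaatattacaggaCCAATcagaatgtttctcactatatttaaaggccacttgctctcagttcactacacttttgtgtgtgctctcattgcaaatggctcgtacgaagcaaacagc
HIST1H4L (GRCh38.p14 chr6:27873485-27873784, minus strand): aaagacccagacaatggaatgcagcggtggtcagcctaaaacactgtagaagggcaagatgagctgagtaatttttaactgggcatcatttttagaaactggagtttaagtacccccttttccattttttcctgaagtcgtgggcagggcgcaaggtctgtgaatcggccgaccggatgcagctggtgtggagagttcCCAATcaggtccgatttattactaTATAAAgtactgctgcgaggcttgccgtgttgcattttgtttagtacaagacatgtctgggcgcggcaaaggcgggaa

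Levels are given as CPM, counts scaled to the library size, after normalisation over the 18 libraries by the trimmed mean of M values (TMM). Levels of different genes are set side by side only as TPM. TPM also divides by transcript length as the authors' software took it. The libraries held from 20122172 to 39025042 counts. The histone genes took 0.245% to 0.380% of the counts in WM164 and SKMel28 libraries and 0.789% to 1.09% in A375 libraries. MAFG itself stood at 25.6, 28.8 and 23 CPM in the WM164 GFP libraries and at 56, 55.4 and 47.8 with MAFG, at 26.2, 26 and 20.1 and 38.9, 35.8 and 37.3 in SKMel28, and at 23.7, 24.6 and 32.7 and 56.3, 47.9 and 37.8 in A375. The MAFG libraries were above the GFP libraries of their line in all 3 lines, although in A375 the adjusted p was 0.0655. Markers of the melanocyte lineage summed to between 2637 and 5103 CPM in WM164 and SKMel28 libraries but to only 36.1, 36.7 and 42.1 CPM in the A375 GFP libraries, and 5 of 7 tested fell with MAFG in WM164, 3 of 8 fell and 2 rose in SKMel28, and 1 of 4 rose in A375. Markers of other cell types summed to between 0.390 and 2.46 CPM in the 18 libraries, with 0 of 2 tested changed in WM164 and 0 of 2 in SKMel28.

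Of the 71 genes, 56 had at least 10 counts in every library, 2 (HIST1H2BA and HIST1H4G) had no count in any library, and HIST1H2AA, HIST1H3D, HIST1H4K and HIST3H3 were too low to be tested in any comparison. For HIST1H3D, 16 of the 404 windows of 100 bases in its transcript were unique and 96.0% were shared with another gene. Its low counts therefore do not show that it was silent. By TPM, HIST1H4J had the highest mean level in all 6 conditions, from 301 TPM in WM164 with MAFG to 1585 TPM in A375 with MAFG. Its copy HIST1H4K had a mean of at most 4.09 TPM. HIST1H1E, the most highly counted linker histone gene, came next in WM164 at 373 TPM with GFP, HIST1H3C came next in SKMel28 at 436 TPM with GFP, and HIST2H4A in A375 at 1087 TPM. These ranks take each copy as counted and depend on how reads were shared between copies. They also depend on the length that TPM divides by. In the WM164 GFP libraries HIST1H1E had 12360, 9861 and 9878 counts for a longest transcript of 787 bases. HIST1H4J had 4295, 3371 and 3237 for 389 bases, so counts over these lengths would put HIST1H1E above HIST1H4J there. HIST1H4J held 99.5% to 100% of the counts of its pair with HIST1H4K. HIST2H2AA3 held 24.7% to 64.1% of those of its pair with HIST2H2AA4. Pair sums were not ranked. The 5 most abundant genes of a library held from 31.1% to 35.3% of its histone counts.

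Some members cannot be told apart by their reads. HIST2H2AA3 and HIST2H2AA4, HIST2H3A and HIST2H3C, HIST2H4A and HIST2H4B, and HIST1H4J and HIST1H4K are near-identical copies, and 13 of the 71 genes had under 50% of the 100-base windows of their transcripts unique. The counts behave as rounded estimates that share such reads out between copies. HIST2H3A and HIST2H3C were given exactly equal counts in 2 libraries, 1493 each in the second WM164 MAFG library and 861 each in the second SKMel28 GFP library, and HIST2H3A took from 50% to 100% of the pair's counts over the libraries. Values of single copies are therefore uncertain, and tests of the pair sums are given beside the main comparisons of these genes. The study's methods describe counting of uniquely aligned reads with featureCounts, but HIST2H2AA3, with 0 of its 434 windows unique, held from 1732 to 22061 counts in the deposited table.

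The first question was whether the summed histone level moved with MAFG within a line. In WM164 the 71 genes summed to 4138, 3059 and 3516 CPM with GFP and to 2586, 2639 and 2959.6 with MAFG, a ratio of means of 0.764, and each MAFG library lay below each GFP library. In SKMel28 the sums were 2857, 2627 and 3022 with GFP and 2823, 2657 and 2928 with MAFG. In A375 they were 6870.3, 8142 and 9269.5 and 10164, 7522 and 8063. The libraries of the 2 treatments overlapped in SKMel28 (ratio 0.989) and in A375 (ratio 1.06). All 5 classes were lower with MAFG in WM164, with ratios of 0.761 for H1, 0.758 for H2A, 0.786 for H2B, 0.784 for H3 and 0.715 for H4, and only the H2B sums overlapped between treatments. The HIST1 cluster fell to a ratio of 0.728 without overlap, whereas the HIST2 group stood at 0.838 with overlap. On summed TPM the WM164 ratio was 0.840, again without overlap, and that of SKMel28 was 0.892, also without overlap. RNAs without a poly(A) tail took 7.62%, 6.5% and 6.68% of counts in the WM164 GFP libraries and 7.47%, 7.06% and 7.14% with MAFG, and GFP replicate 1 was highest for this share and for the histone sum. In A375, MAFG replicate 1 had the highest histone sum, the highest share of RNAs without a tail (6.37%, against 3.86% to 4.73% in the other 5 libraries) and the lowest share of mitochondrial ribosomal RNA (0.494%). Their part in the result was not tested.

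**Figure D1:**
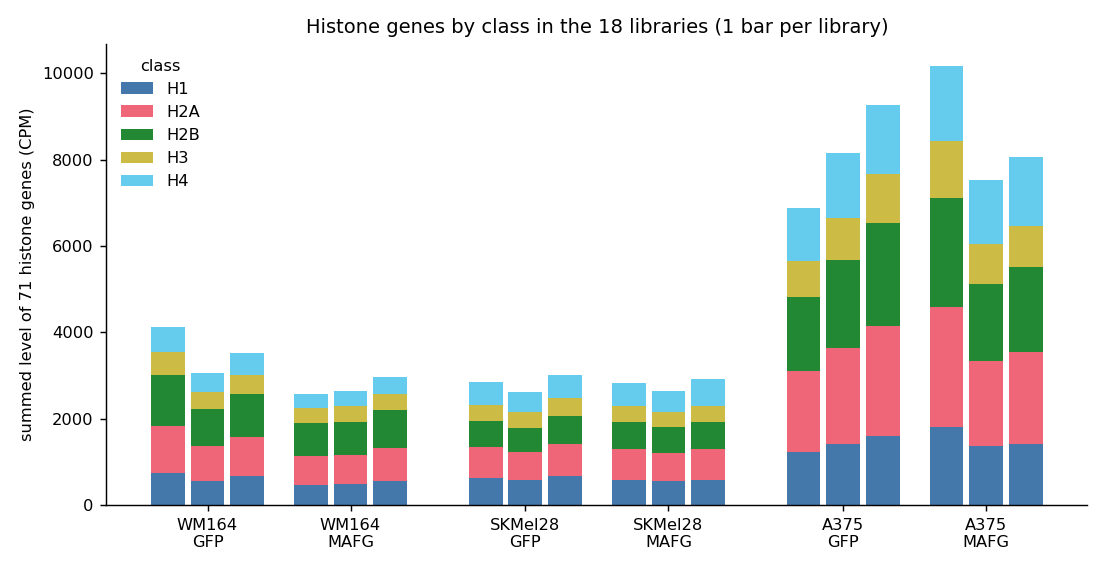
Summed level of the 71 histone genes in CPM (y axis) in each of the 18 libraries (1 bar per library, grouped by line and treatment on the x axis), split by histone class. The 3 WM164 MAFG bars end below the 3 WM164 GFP bars, the SKMel28 and A375 treatments overlap, and every A375 bar exceeds every bar of the other lines.

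In WM164, histone genes were lower with MAFG across all 5 classes. A gene was counted as risen or fallen where the adjusted p did not exceed 0.05 (edgeR quasi-likelihood test, Benjamini-Hochberg adjustment over all genes). Of 63 tested, 44 fell and 0 rose, where 15.6% of all 15919 genes tested fell, 16.2% rose and 31.8% did either. The median log2 fold change of the 63 genes was -0.44 beside -0.00 over all genes, 61 estimates were below 0, and 0 of the 44 passed a 2-fold change, where 6.94% of all genes passed both. The 3 MAFG libraries lay below the 3 GFP libraries without overlap for 38 of the 63, where 20.8% of all genes did, and above them for 0, where 22.6% did. Among H1 genes 4 of 5 fell, among H2A 11 of 16, among H2B 12 of 17, among H3 6 of 12 and among H4 11 of 13. In the HIST1 cluster 37 of 48 fell and in the HIST2 group 6 of 12. Of genes with a spliced transcript 9 of 15 fell (median -0.42) and of those without one 35 of 48 (median -0.44), a difference that was not tested. Of the genes with most windows unique, 35 of 52 fell.

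HIST1H3C, which encodes histone H3, stood at 80.4, 71.9 and 77 CPM in the WM164 GFP libraries and at 51.8, 52.5 and 58.7 with MAFG (log2 fold change -0.49, SE 0.07, adjusted p = 2.22e-05). HIST1H2AC, an H2A gene that also has a spliced transcript, stood at 86.8, 62.8 and 71.4 with GFP and at 45.9, 45.6 and 49.7 with MAFG (log2 fold change -0.65, SE 0.09, adjusted p = 3.02e-05). In both genes the highest MAFG library was below the lowest GFP library. The H4 gene HIST1H4C went from 44.9, 35.2 and 37 to 23.6, 25.8 and 26.3 CPM (log2 fold change -0.63, SE 0.09, adjusted p = 4.19e-05). The H3 gene HIST1H3G went from 76.5, 58.6 and 62.9 to 41.8, 45.8 and 45.2 (log2 fold change -0.58, SE 0.09, adjusted p = 5.09e-05). The H2B gene HIST1H2BD went from 39.8, 30.3 and 31.4 to 19.4, 22.8 and 21.6 (log2 fold change -0.67, SE 0.10, adjusted p = 6.58e-05). In these 3 genes too the treatments did not overlap, and GFP replicate 1 was the highest library of the 6, as it was for the summed level.

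The H1 linker genes, whose products compact chromatin between nucleosomes, moved by different amounts in WM164. HIST1H1E stood at 441, 327 and 390.1 CPM with GFP and at 254, 264 and 309.8 with MAFG (log2 fold change -0.49, SE 0.09, adjusted p = 3.82e-04). HIST1H1A, another H1 gene, stood at 6.28, 5.94 and 6.04 and 3.36, 3.10 and 4.79 (log2 fold change -0.69, SE 0.18, adjusted p = 0.00712). Both were separate between the treatments. HIST1H1C fell by 0.34 on the log2 scale (adjusted p = 0.00146) and HIST1H1D by 0.30 (adjusted p = 0.0142). HIST1H1B, at 103, 81.2 and 98 CPM with GFP and 79.8, 81 and 91.2 with MAFG, did not pass (log2 fold change -0.16, SE 0.08, adjusted p = 0.136), and its treatments overlapped. The HIST1H1D call was lost without GFP replicate 1 (-0.25), GFP replicate 3 (-0.26) or MAFG replicate 1 (-0.25).

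Of the most highly counted H2B genes of the HIST2 group, HIST2H2BE fell in WM164 and HIST2H2BF did not pass. The H2B gene HIST2H2BE went from 303, 229 and 255 to 211, 201 and 233 CPM (log2 fold change -0.29, SE 0.08, adjusted p = 0.0125), with MAFG replicate 3 above the lowest GFP library, and its call was lost without GFP replicate 1 (-0.17), MAFG replicate 1 (-0.27) or MAFG replicate 2 (-0.24). HIST2H2BF, another H2B gene, went from 282, 198 and 245 to 193, 198 and 229 (log2 fold change -0.23, SE 0.10, adjusted p = 0.0820) and did not pass. HIST2H2AC, an H2A gene named after its values were seen, stood at 36.7, 30.2 and 38.8 with GFP and 35.1, 33.1 and 35.4 with MAFG (log2 fold change -0.03, SE 0.09, adjusted p = 0.853). The treatments overlapped in all 3 genes. Summed, the HIST2H2AA3 and HIST2H2AA4 pair stood at -0.24 on the log2 scale (adjusted p = 0.0651), the HIST2H3A and HIST2H3C pair -0.25 (adjusted p = 0.0622), and the HIST2H4A and HIST2H4B pair -0.32 (adjusted p = 0.00905). HIST1H4J summed with HIST1H4K fell by 0.53 on the log2 scale (adjusted p = 2.31e-04).

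The 19 tested genes that did not pass in WM164 included HIST1H2AL at a log2 fold change of 0.00, HIST1H4A at -0.02, HIST2H3D at -0.05 and HIST3H2A at -0.14, named here after their values were seen. The count in WM164 depended on the scale and on the model: 15 of the genes fell when log2(TPM + 1) was tested with limma, 25 when all 18 libraries were fitted in 1 model, and from 32 to 49 when 1 library was left out. With log2(TPM + 1) the all-gene median shifted to 0.14 and that of the histone genes was -0.27.

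**Figure D2:**
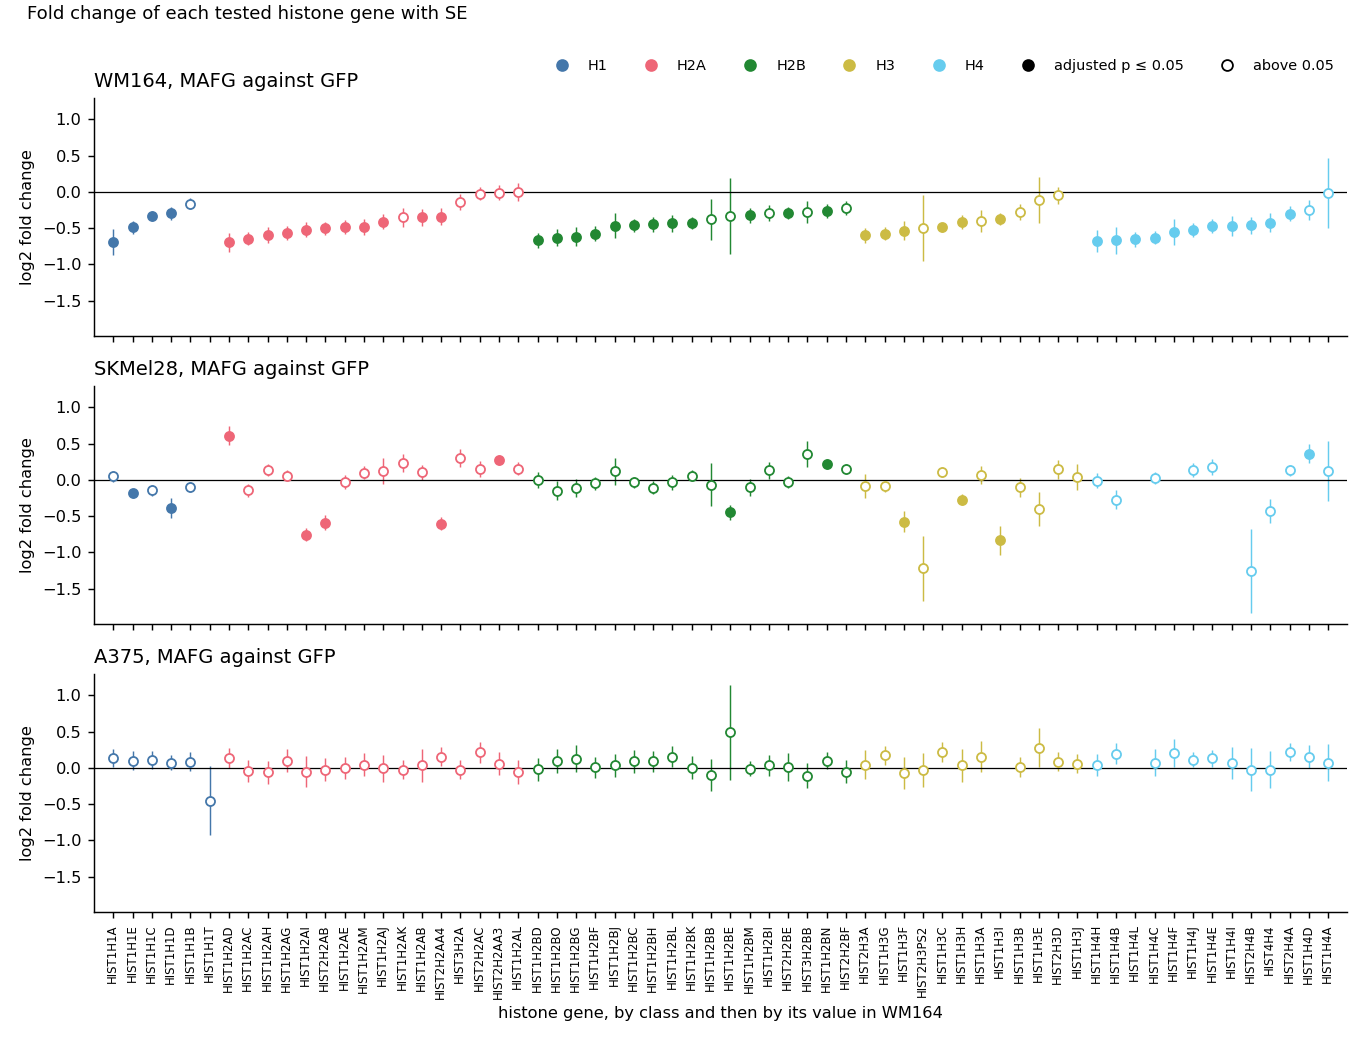
Log2 fold change of MAFG against GFP (y axis, with SE) for each tested histone gene (x axis, by class and then by its WM164 value) in WM164, SKMel28 and A375. Filled points passed an adjusted p of 0.05. HIST2H3C, the only histone gene past 2-fold in SKMel28, is not drawn, although other genes that share counts with a copy are. Most WM164 points lie below 0 and are filled, SKMel28 holds filled points on both sides, and no A375 point is filled.

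In SKMel28, the share of histone genes that fell was close to that of all genes, and the share that rose was below it. Of 61 tested, 10 fell and 4 rose, where 15.3% of all 15523 genes tested fell, 14.6% rose and 29.9% did either, beside 16.4% and 6.56% of the histone genes. The median log2 fold change was -0.03 beside -0.01 over all genes. The treatments did not overlap for 12 genes that were lower (22.0% of all genes) and for 5 that were higher (21.1% of all genes). Of the genes with most windows unique, 7 of 50 fell and 2 rose.

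Among those that fell in SKMel28, the H2A gene HIST2H2AB went from 28.3, 21.6 and 27 to 16.7, 17.7 and 16.9 CPM (log2 fold change -0.59, SE 0.10, adjusted p = 4.67e-04). The H2A gene HIST1H2AI, with 41.2% of its windows unique, went from 46.2, 42.4 and 38.1 to 27.4, 23.7 and 23.6 (log2 fold change -0.76, SE 0.09, adjusted p = 1.11e-05). In both, every MAFG library was below every GFP library. The H2B gene HIST1H2BE went from 31.9, 24.8 and 32.3 to 22.6, 21.6 and 21.2 (log2 fold change -0.45, SE 0.10, adjusted p = 0.00320). The H3 gene HIST1H3I went from 6.03, 7.18 and 6.62 to 4.54, 2.72 and 3.79 (log2 fold change -0.84, SE 0.20, adjusted p = 0.00429). The treatments were separate there as well. The others that fell were HIST1H3F (-0.58) and HIST1H3H (-0.28), both named after their values were seen, HIST1H1E (-0.19), HIST1H1D (-0.39) and the copies HIST2H2AA4 (-0.61) and HIST2H3C (-4.77), the last being the only histone gene past 2-fold (4.74% of all genes were), with 0.499, 42.4 and 0.655 CPM with GFP and 0.0333, 1.43 and 0.0750 with MAFG. Without GFP replicate 1, GFP replicate 3, MAFG replicate 1 or MAFG replicate 2 the calls of HIST1H1E (-0.18, -0.14, -0.19 and -0.14) and HIST1H1D (-0.37, -0.31, -0.34 and -0.35) were lost, and with the trend on length and GC content removed HIST1H1E stood at -0.01.

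Of the 4 genes that rose in SKMel28, the H2A gene HIST1H2AD stood at 29.6, 30.1 and 45.2 CPM with GFP and 48.8, 52.1 and 59.3 with MAFG (log2 fold change 0.61, SE 0.13, adjusted p = 0.00202), but only 18% of its windows were unique. The H2B gene HIST1H2BN stood at 50.01, 46 and 51.5 and 54.2, 57.1 and 61.1 (log2 fold change 0.22, SE 0.07, adjusted p = 0.0254). The H4 gene HIST1H4D stood at 10.1, 9.89 and 12.2 and 15.8, 12.4 and 13.2 (log2 fold change 0.36, SE 0.13, adjusted p = 0.0499). In each of the 3 the treatments were separate. The HIST1H2BN call was lost without GFP replicate 1 (0.24), GFP replicate 2 (0.18), MAFG replicate 2 (0.23) or MAFG replicate 3 (0.18), and that of HIST1H4D without GFP replicate 1 (0.32), GFP replicate 2 (0.30), MAFG replicate 1 (0.25) or MAFG replicate 3 (0.39). HIST2H2AA3 rose by 0.27 on the log2 scale, while its sum with the identical copy HIST2H2AA4 stood at -0.14 (adjusted p = 0.107), the opposite direction. The sum of HIST2H3A and HIST2H3C fell by 0.34 (adjusted p = 0.00217).

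In A375, no histone gene passed. Of 63 tested, 0 fell and 0 rose by edgeR, where 0.0634% and 0.780% of all 15779 genes did, 0.843% in all, 0 had an unadjusted p under 0.05, and DESeq2 also called 0. The median log2 fold change was 0.06, with estimates from -0.46 to 0.49, and 44 estimates were above 0. HIST1H3C stood at 186, 225 and 257 CPM with GFP and 288, 224 and 267 with MAFG (log2 fold change 0.22, SE 0.13, adjusted p = 0.970), and HIST1H1E at 655, 736 and 890.0 and 978, 724 and 754 (log2 fold change 0.10, SE 0.13, adjusted p = 0.997). The treatments overlapped for both. HIST1H2BE, at under 1 CPM, was the 1 gene whose treatments did not overlap (7.33% of all genes were higher and 4.92% lower without overlap).

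Whether the lines responded differently was tested as the difference of their fold changes in a model of all 18 libraries. The response was higher in A375 than in WM164 for 9 of 65 histone genes and lower for 0, where 4.69% of all 18767 genes were higher, 4.52% lower and 9.21% either, with a median difference of 0.49 beside 0.01 over all genes. It was lower in WM164 than in SKMel28 for 8 genes and higher for 0, where 6.32% of all genes were lower, 7.39% higher and 13.7% either, with a median difference of -0.43. Between A375 and SKMel28 only HIST2H2AA4 passed (5.83% of all genes were higher, 3.68% lower and 9.51% either), and it did not when summed with its copy. A difference past 2-fold that also passed the test was seen for 0 histone genes between A375 and WM164 (4.39% of all genes), 0 between A375 and SKMel28 (4.2%) and 1, HIST1H2AD, between WM164 and SKMel28 (5.10%). HIST1H3C differed by 0.71 (SE 0.15, adjusted p = 0.00360) between A375 and WM164 and by -0.59 (SE 0.15, adjusted p = 0.0117) between WM164 and SKMel28. Both comparisons use the same WM164 libraries. With log2(TPM + 1) the median difference was 0.21 for A375 against WM164, with 4 genes passing and an all-gene median of -0.21, and -0.11 for WM164 against SKMel28, with 4 genes passing and an all-gene median of 0.26. Leaving out 1 library gave from 3 to 23 genes for A375 against WM164 and from 3 to 17 for WM164 against SKMel28.

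The second question was how the lines differed without MAFG, in their GFP libraries. A375 had the highest histone level of the 3 lines, 2.27-fold that of WM164 and 2.86-fold that of SKMel28 in summed CPM, and 3.50-fold and 2.76-fold in summed TPM, where the order of the 2 ratios turned, and no A375 library overlapped with the other lines. Against WM164, 58 of 65 genes were higher in A375 and 5 were lower (34.6% and 36.9% of all 18767 genes, 71.5% together), with a median log2 fold change of 1.10 beside -0.08 over all genes, and 43 passed 2-fold (46.7% of all genes). Against SKMel28, 54 were higher and 4 lower (33.3% and 35.3% of all genes, 68.6% together), with a median of 1.44, and 49 passed 2-fold (43.8% of all genes). Without the 4 genes in each comparison that were counted in 1 of the 2 lines almost alone, 56 were higher and 3 lower against WM164, and 51 were higher and 3 lower against SKMel28. The libraries of the 2 lines did not overlap for 54 genes higher and 5 lower in A375 than in WM164 (36.1% and 39.4% of all genes), and for 55 higher and 3 lower than in SKMel28 (35.2% and 37.7%). Per class, the A375 sum was 2.13-fold that of WM164 for H1, 2.38-fold for H2A, 2.01-fold for H2B, 2.16-fold for H3 and 2.87-fold for H4.

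HIST1H4J stood at 313, 385 and 337 CPM in A375, 153, 112 and 128 in WM164 and 180.1, 169 and 205 in SKMel28. HIST2H4A stood at 453, 546 and 615 in A375, 102, 69.5 and 83.9 in WM164 and 152, 127 and 157 in SKMel28. A375 was highest for both H4 genes, and the 3 lines did not overlap. Summed with their copies, the log2 fold changes of A375 against WM164 were 1.4 for the HIST1H4J pair and 2.46 for the HIST2H4A pair, and against SKMel28 0.90 and 1.88. The H2B gene HIST2H2BE stood at 281, 338 and 405, 303, 229 and 255 and 74.4, 79.1 and 85.5 CPM in A375, WM164 and SKMel28, so that SKMel28 stood apart below the others and A375 overlapped with WM164. HIST1H3G did not differ between lines past the threshold: 60.8, 67.7 and 77.8 CPM in A375, 76.5, 58.6 and 62.9 in WM164 and 63.7, 56.2 and 63.3 in SKMel28, with log2 fold changes of 0.06 (SE 0.12) for A375 against WM164 and 0.17 (SE 0.12) for A375 against SKMel28. The HIST3 group summed to 168.7 ± 17.6 CPM (SD, n = 3) in A375, 27.1 ± 4.22 in WM164 and 21.8 ± 1.05 in SKMel28.

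WM164 and SKMel28 lay closer together in summed level, and their order depended on the scale. Of 65 genes, 28 were higher in WM164 and 12 lower (27.8% and 29.0% of all genes, 56.8% together), with a median log2 fold change of 0.33, and 19 passed 2-fold (28.7%). Without the 4 genes that were counted in 1 of the 2 lines almost alone, 25 were higher and 11 lower, and the median was 0.30. The other counts of this comparison include these 4 genes. The libraries did not overlap for 29 genes higher and 12 lower in WM164 (33.4% and 33.9%). The summed CPM was 1.26-fold higher in WM164, while the summed TPM was 1.27-fold higher in SKMel28, and the median of the genes was -0.27 on the log2(TPM + 1) scale, where the median of all genes was -0.42. Without WM164 GFP replicate 1 the median was 0.08. The H2B sum was 1.68-fold higher in WM164, at 1022.5 ± 156 CPM (SD, n = 3) in WM164 and 606.8 ± 49.2 in SKMel28.

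A few histone genes were counted in some lines and nearly absent in others. HIST1H4L (H4; GRCh38 chr6:27873148-27873534, 1 exon, all 288 windows unique) stood at 58.2, 41.8 and 44.7 CPM in the WM164 GFP libraries and at 29.8, 28.3 and 33.8 with MAFG, and had 0 counts in all 12 libraries of the other lines. Against a floor of 3 counts per library it was at least 595-fold lower in A375 and at least 412-fold lower in SKMel28. HIST1H3I (H3; chr6:27871845-27872346), its neighbour on the same strand, had 0 counts in all 6 A375 libraries and stood at 46.9, 40.5 and 40.04 CPM in WM164 and 6.03, 7.18 and 6.62 in SKMel28 with GFP, at least 524-fold and 81.5-fold above the floor in A375.

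The reverse was seen for HIST1H3J (H3; chr6:27890315-27893106), at 0.178, 0 and 0.197 CPM in WM164, 14.9, 13.4 and 21.2 in SKMel28 and 84.3, 105 and 115 in A375. Of the HIST1H3J windows 67.5% were unique and 32.5% were shared with the H2A gene HIST1H2AM. The H4 gene HIST1H4F had 1, 1 and 0 counts in the SKMel28 GFP libraries and stood at 10.9, 6.37 and 7.50 CPM in WM164 and 12.8, 17.4 and 23 in A375. HIST1H4I, also H4, had 7, 2 and 0 counts in SKMel28 and stood at 24.5, 18.2 and 18 CPM in WM164 and 34.7, 38.8 and 61 in A375. Both H4 genes were thus low in SKMel28 only. The H2B gene HIST1H2BE had the opposite order, at 31.9, 24.8 and 32.3 CPM in SKMel28, 0.464, 0.929 and 0.316 in WM164 and 0.313, 0.272 and 0.223 in A375. HIST4H4, the H4 gene on chromosome 12, was highest in WM164 at 29.8, 22.1 and 18.4 CPM, with 6.86, 7.58 and 5.90 in SKMel28 and 3.99, 3.12 and 3.65 in A375, so that A375, the highest line in summed level, was the lowest here. None of the 3 lines overlapped with another for HIST4H4.

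**Figure D3:**
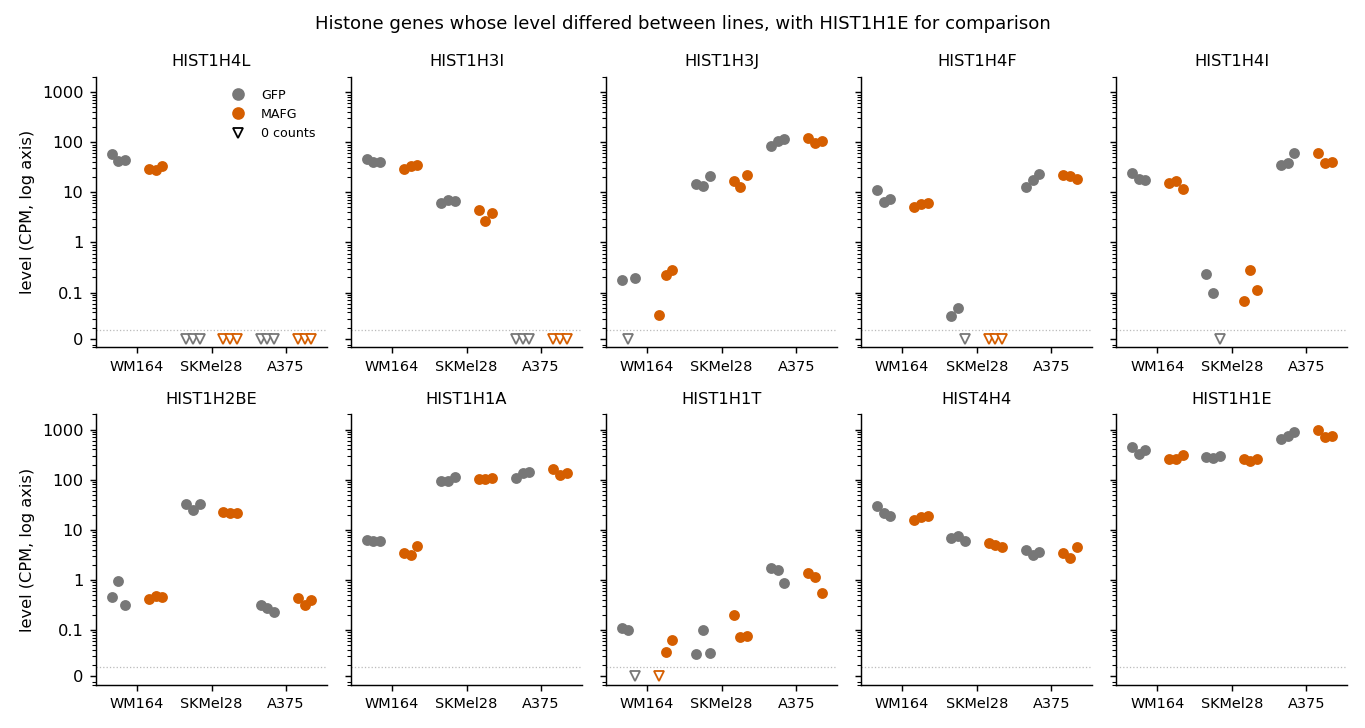
Level in CPM on a log axis (y axis) of 9 histone genes chosen for their difference between lines, and of HIST1H1E, in each library of the 3 lines (x axis; grey GFP, orange MAFG). Open triangles on the row marked 0 are libraries with 0 counts. HIST1H4L has points above 0 in WM164 alone, HIST1H3I lacks them in A375, and HIST1H2BE is above 20 CPM in SKMel28 alone.

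The linker histone genes differed between lines one by one. HIST1H1A stood at 6.28, 5.94 and 6.04 CPM in WM164, 93.7, 94.9 and 113 in SKMel28 and 105, 136 and 139 in A375, a log2 fold change of 4.38 (SE 0.15, adjusted p = 2.59e-16) for A375 against WM164. HIST1H1D stood at 45.2, 37.2 and 45.3, 11.6, 10.03 and 12.5 and 107, 117 and 126 CPM in the same order of lines, lowest in SKMel28. WM164 was thus low in HIST1H1A and SKMel28 in HIST1H1D. Per length, HIST1H1E was the highest H1 gene in each line, at 373 TPM in WM164, 404 in SKMel28 and 1060 in A375 with GFP, and HIST1H1T, known as the testis H1, had 66, 58 and 31 counts in the A375 GFP libraries and at most 3 in any GFP library of the other lines. The summed H1 level did not separate WM164 (668 ± 88.1 CPM, SD, n = 3) from SKMel28 (631 ± 42.7).

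The genes around histone supply were examined as lists. In WM164 the variant histones, a list taken as having polyadenylated messages, had 5 of 10 lower and 1 higher. Whether a gene of this list also makes a stem-loop message was not checked. Of all genes tested 15.6% were lower and 16.2% higher, shares that hold for the other WM164 lists as well. H2AFZ, the H2A.Z variant, stood at 549.7, 477 and 588 CPM with GFP and 373, 376 and 441 with MAFG (log2 fold change -0.44, SE 0.08, adjusted p = 1.80e-04), and CENPA, the centromeric H3, at 24.8, 20.9 and 25.3 and 14, 14.1 and 14.5 (log2 fold change -0.74, SE 0.10, adjusted p = 9.33e-06). H2AFX, H2AFV and H1FX were lower by 0.36, 0.30 and 0.38 on the log2 scale, and H1F0, a linker histone of resting cells, rose by 0.53. S phase genes had 13 of 44 lower and 0 higher with a median of -0.16, among them EXO1 (-0.58), CHAF1B (-0.43) and MLF1IP (-0.43), and their summed level was 1762 ± 107 CPM with GFP and 1587 ± 107 with MAFG (SD, n = 3). Their part in the histone result was not tested.

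Of the factors that transcribe and process histone RNA, 3 of 22 were lower and 4 higher in WM164, with a median of 0.07. NPAT stood at 34.3, 39.4 and 36.3 CPM with GFP and 27, 27.2 and 29.6 with MAFG (log2 fold change -0.39, SE 0.08, adjusted p = 8.96e-04). SLBP stood at 28.8, 22.8 and 28.7 and 24, 29.3 and 30.2 (log2 fold change 0.06, SE 0.10, adjusted p = 0.729). NPAT was separate between treatments and SLBP overlapped. CDK2 fell by 0.88 (adjusted p = 3.04e-09), but it overlaps the pigment gene PMEL and the counting's use of strand is not given. HINFP (0.22), CASP8AP2 (0.09), LSM11 (-0.29) and ZNF473 (-0.15) did not pass. RNAs without a poly(A) tail had 3 of 23 lower and 1 higher with a median of 0.01, and their summed level was 74041 ± 7809 CPM with GFP and 75996 ± 3341 with MAFG (SD, n = 3). Histone chaperones had 7 of 22 lower and 5 higher with a median of -0.08.

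In SKMel28 NPAT went from 59.5, 60.5 and 55.5 to 40.3, 38.8 and 34.3 CPM (log2 fold change -0.63, SE 0.07, adjusted p = 9.99e-06) without overlap, while SLBP stood at 29, 23.2 and 26.1 and 30.9, 25.1 and 26.7 (log2 fold change 0.08, SE 0.10, adjusted p = 0.627). ZNF473, which acts in histone 3′ end cutting with the U7 particle, fell by 0.39 (adjusted p = 0.00575). The list of transcription and processing factors had 3 of 22 lower and 2 higher, the S phase genes 3 of 44 lower and 5 higher, the chaperones 3 of 22 lower and 5 higher, the variant histones 1 of 9 lower and 1 higher, and the RNAs without a tail 3 of 21 lower and 4 higher, where 15.3% of all genes were lower and 14.6% higher. H2AFZ rose by 0.22 (adjusted p = 0.0218). In A375 no gene of these lists passed except RN7SK, which rose by 0.45 (adjusted p = 0.0370), where 0.843% of all genes passed.

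Between lines, A375 was higher than WM164 for 39 of 44 S phase genes and lower for 1, with a median log2 fold change of 1.09, and higher than SKMel28 for 31 and lower for 5, with a median of 0.67. Over all genes, 34.6% were higher and 36.9% lower than in WM164, and 33.3% higher and 35.3% lower than in SKMel28, which is the background for every list here. SLBP stood at 75.7, 74.8 and 69.97 CPM in A375, 28.8, 22.8 and 28.7 in WM164 and 29, 23.2 and 26.1 in SKMel28, and A375 lay apart above both. NPAT had the opposite order, at 19.8, 17.1 and 17.7, 34.3, 39.4 and 36.3 and 59.5, 60.5 and 55.5 CPM. RNAs without a poly(A) tail were lower in A375 than in WM164 for 13 of 24 and higher for 1 (median -0.90), and lower than in SKMel28 for 8 and higher for 3 (median -0.12). The transcription and processing factors were higher in A375 than in WM164 for 15 of 22 and lower for 3, the chaperones higher for 15 of 22 and lower for 2, and the variant histones higher for 9 of 11 and lower for 1. The part of the S phase genes in the histone difference was not tested. WM164 against SKMel28 had 27 of 44 S phase genes lower and 5 higher (median -0.40, where 29.0% of all genes were lower and 27.8% higher), beside 28 histone genes higher and 12 lower on counts and a histone median of -0.27 with log2(TPM + 1).

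**Figure D4:**
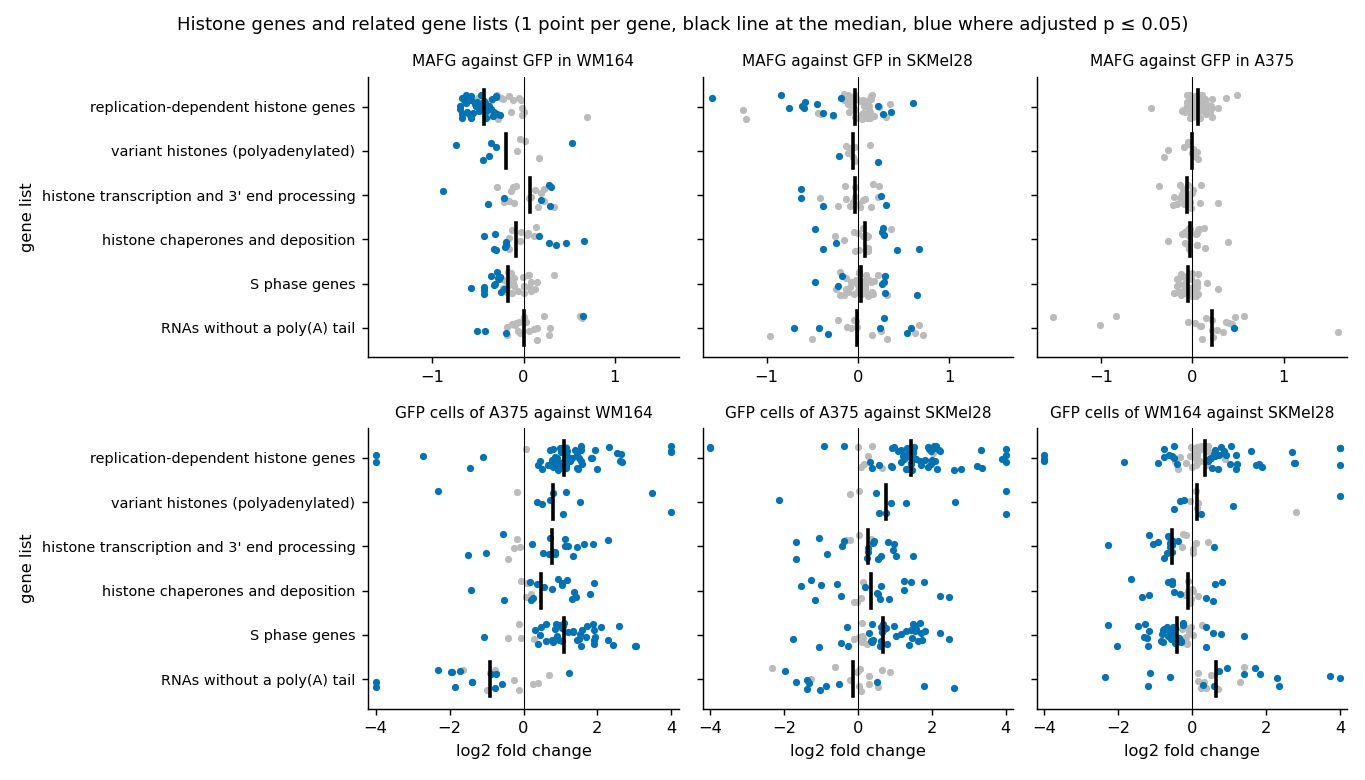
Log2 fold change (x axis) of the histone genes and of 5 lists of related genes (y axis, 1 point per gene) for MAFG against GFP in the 3 lines (top) and between the GFP libraries of the lines (bottom). Black lines are medians, blue points passed an adjusted p of 0.05, and values beyond an axis are drawn at its edge. In WM164 the histone genes have a median of -0.44 and the S phase genes -0.16, and between A375 and WM164 the medians are 1.10 and 1.09.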

How the data were processed

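RNA of the 18 libraries was processed by the authors with cutadapt 1.8.1, STAR 2.7.7a and RSEM 1.3.0, per the labels, and DESeq2 was named without a version. The study's methods instead name featureCounts on uniquely aligned reads. The deposited whole-number counts may be rounded expected counts of RSEM. Within a library the ratio of count to TPM varied by at most 0.144% over the 4 or 5 genes compared. These are too few genes to decide the counting step. Over genes of other lengths the ratio differs, because TPM divides by length. The TPM values deposited by the authors were used for levels per length and as an alternative scale. Strand use in counting is not given in the sources used here. Libraries held 20122172 to 39025042 counts, which limits low genes most.

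Each line was tested with edgeR 4.0.16 (R 4.3.3) by the quasi-likelihood test on 6 libraries after TMM normalisation and filterByExpr, with Benjamini-Hochberg adjustment over all genes tested and a threshold of 0.05. GFP cells of line pairs, and differences of response, were contrasts of 1 model over the 18 libraries. Scripts were tested on simulated data. Alternatives were DESeq2 1.42.0, other filters and normalisation, limma 3.58.1 on log2(TPM + 1) and log2(TPM + 0.1), a replicate block, removal of a length and GC trend, summed copies, and 1 library left out. Members and lists (variant histones, transcription and 3′ processing factors, chaperones, S phase genes, RNAs without a poly(A) tail, melanocyte markers and markers of other cell types) were chosen with earlier results of these data known. Genes are named as the 2 highest of each class, up to 5 per line and direction by adjusted p, up to 3 per line pair by fold change or response difference, all H1 genes, identical copies and fixed regulators, and up to 3 per line of the other lists. Stem-loops were read from GRCh38 with GENCODE 44 gene models.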

Additional observations from a re-analysis of the deposited data

Results flagged for a closer look

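The following histone genes had a response to MAFG that differed between 2 lines by the test of the difference itself (edgeR contrast over 18 libraries, log2 scale, adjusted over all genes). Both sets use the same WM164 libraries. Between A375 and WM164 the response was higher in A375 for HIST1H1A (0.83, adjusted p = 0.0109), HIST1H1E (0.59, adjusted p = 0.0375), HIST1H2AD (0.84, adjusted p = 0.0250), HIST1H2AG (0.68, adjusted p = 0.0356), HIST1H2BO (0.74, adjusted p = 0.0471), HIST1H3C (0.71, adjusted p = 0.00360), HIST1H3G (0.76, adjusted p = 0.00549), HIST1H4B (0.87, adjusted p = 0.0308) and HIST1H4J (0.64, adjusted p = 0.0207, and 0.64 with adjusted p = 0.0209 when summed with its copy HIST1H4K).

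Between WM164 and SKMel28 the response was lower in WM164 for HIST1H1A (-0.73, adjusted p = 0.0191), HIST1H2AD (-1.31, adjusted p = 6.36e-04), HIST1H2AG (-0.63, adjusted p = 0.0429), HIST1H2AH (-0.73, adjusted p = 0.0245), HIST1H2BD (-0.67, adjusted p = 0.0428), HIST1H3C (-0.59, adjusted p = 0.0117), HIST1H4E (-0.65, adjusted p = 0.0298) and HIST1H4J (-0.66, adjusted p = 0.0124, and -0.66 with adjusted p = 0.0123 for the pair). Between A375 and SKMel28 it was higher in A375 for HIST2H2AA4 (0.77, adjusted p = 0.0257), whose sum with its copy HIST2H2AA3 differed by 0.25 (adjusted p = 0.478). HIST1H2AD shares most of its windows with other genes, and the genes named here were picked by this test.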

How the results depend on the processing

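For MAFG against GFP in WM164, the 44 genes past the threshold became 15 on log2(TPM + 1) and 15 on log2(TPM + 0.1), 25 with all 18 libraries in 1 model, and 0 when a log2 fold change above 1 was required as well. In SKMel28 the 14 genes became 6 in 1 model, 1 with the fold required, and 9 over genes with most windows unique, an alternative chosen after seeing the data, as were the sums of identical copies. With 1 library left out the counts were 32 to 49 in WM164, 10 to 14 in SKMel28 and 0 to 0 in A375. Between GFP cells they were 57 to 65 for A375 against WM164, 56 to 59 for A375 against SKMel28 and 37 to 40 for WM164 against SKMel28, which had 19 with the fold required.

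The counts for differences of response were the least stable. For A375 minus WM164 the 9 genes became 19 with DESeq2, 32 with no count filter, 14 with at least 10 counts in every library, 15 with the length and GC trend removed, 4 on log2(TPM + 1), 3 on log2(TPM + 0.1), and 0 with the fold required. Leaving out 1 library gave 3 to 23 (WM164 GFP replicate 1, 3; replicate 2, 18; replicate 3, 5; WM164 MAFG replicates 1 and 2, 3 each; A375 GFP replicate 1, 3; replicate 2, 5; replicate 3, 23; A375 MAFG replicate 2, 19). For A375 minus SKMel28 the 1 gene became 2 with DESeq2, 6 with no count filter, 2 with at least 10 counts, 4 on both TPM scales, 0 with copies summed, 0 over genes with most windows unique and 0 with the fold required. Leaving out 1 library gave 0 to 3 (0 without SKMel28 GFP replicate 1 or A375 GFP replicate 1; 2 without SKMel28 MAFG replicate 3, A375 MAFG replicate 1 or A375 MAFG replicate 2; 3 without A375 GFP replicate 3 or A375 MAFG replicate 3). For WM164 minus SKMel28 the 8 genes became 14 with DESeq2, 26 with no count filter, 24 with the length and GC trend removed, 4 on both TPM scales and 1 with the fold required. Leaving out 1 library gave 3 to 17 (WM164 GFP replicates 1 and 3, 5 each; replicate 2, 17; WM164 MAFG replicates 1 and 2, 3 each; SKMel28 GFP replicate 2 and SKMel28 MAFG replicate 3, 4 each). The cause was not tested.

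Same-numbered libraries of a line did not deviate together (correlations from -0.033 to 0.012), and neither did those of other numbers (-0.027 to 0.050). No pairing by number was seen, but this check cannot exclude one. A replicate block gave 46 genes in WM164, 0 for A375 minus SKMel28 and 5 for WM164 minus SKMel28.

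The median log2 fold change of WM164 against SKMel28 GFP cells was -0.27 on log2(TPM + 1), -0.28 on log2(TPM + 0.1), both opposite to 0.33, and 0.05 with the length and GC trend removed. That of A375 against WM164 was 1.44 with that trend removed, 1.62 on log2(TPM + 1) and 1.66 on log2(TPM + 0.1). The median difference of response was 0.21 on both TPM scales for A375 minus WM164 (0.207 and 0.208), and -0.11 and -0.10 for WM164 minus SKMel28. HIST2H2AA3 in SKMel28 was -0.14 with copies summed. The log2 ratio of summed levels in SKMel28 was -0.02, and -0.12 without TMM and -0.17 on TPM. For A375 against WM164 it was 1.18, and 1.43 without TMM and 1.81 on TPM. For WM164 against SKMel28 it was 0.33, and -0.34 on TPM. With 1 library left out the median was -0.54 to -0.33 in WM164, -0.09 to 0.08 in SKMel28, -0.07 to 0.16 in A375, 0.95 to 1.25 for A375 against WM164, 1.32 to 1.56 for A375 against SKMel28, 0.08 to 0.35 for WM164 against SKMel28, 0.33 to 0.62 for A375 minus WM164, -0.05 to 0.20 for A375 minus SKMel28 and -0.50 to -0.33 for WM164 minus SKMel28, and the log2 ratio of sums was -0.49 to -0.27 in WM164, -0.07 to 0.03 in SKMel28, -0.05 to 0.19 in A375, 1.07 to 1.3 for A375 against WM164, 1.4 to 1.62 for A375 against SKMel28 and 0.21 to 0.43 for WM164 against SKMel28.

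Over 1233 values of named genes under these settings, 1141 stayed on the same side of the threshold, 79 lost the call, 12 gained one and 1 called value reversed, and 53 estimates that passed in neither fit changed sign. Levels of a few counts, single copies of identical genes, and stem-loop against polyadenylated transcripts cannot be resolved at this depth or by gene counts.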
